A study of Mus musculus with 12 samples.

Results

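The cholesterol and fatty acid synthesis genes are a list of 36 genes. They comprise 7 mevalonate enzymes, 11 enzymes that make squalene and turn it through sterols into cholesterol, and 8 fatty acid enzymes. The others are 5 regulators and 5 genes of sterol transport, oxysterols and the liver X receptor (LXR). The list was given by gene name. It was matched by symbol and Ensembl identifier, and 36 of 36 were found among the 38924 gene identifiers counted. A filter on low counts left 13811 genes for testing, and 36 of the 36 genes passed it. For 1 of them, Ch25h, that rested on WT with CMA, where it is high, so it is described without a test and left out of the counts of genes that rose with CMA in WT in the results that follow. The libraries are bulk RNA, so for each gene fewer cells of a type and less RNA per cell cannot be told apart.

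RNA sequencing was carried out on mouse CD4+ T cells of 2 genotypes on the C57BL/6 background, WT and STINGgt/gt. STINGgt/gt (Goldenticket) mice carry a missense mutation in the gene of STING, the adaptor that senses cyclic dinucleotides, and are labelled as STING KO. Animals of both genotypes were 8 to 12 weeks old. Naive T cells sorted from spleen were expanded for 2 days with antibodies to CD3 and CD28, rested for 1 day and then exposed for 16 h to the membrane-permeable STING agonist CMA or to its solvent DMSO, giving 4 groups of 3 libraries. The study describes the libraries of a group as biological replicates, and the labels do not name the animals, so p-values measure the spread between these libraries.

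Cells make cholesterol from acetyl-CoA through mevalonate, squalene and lanosterol, and make fatty acids from the same acetyl-CoA. When sterols in the endoplasmic reticulum run low, SCAP carries the SREBP precursors, encoded by Srebf1 and Srebf2, to the Golgi, where proteases release transcription factors that turn on nearly every enzyme of both routes. When sterols are plentiful, the INSIG proteins hold SCAP back, and oxysterols activate LXR, which turns on cholesterol exporters and Srebf1. Activated T cells are known to draw on both routes as they build membrane.

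The promoters are shown first because SREBP and its partner NF-Y are known to act close to the start of these genes. RefSeq windows of 300 bases (250 before to 50 after the annotated start, GRCm38.p6) were at hand for 28 of the 36 genes (not for Fdps, Fdft1, Sqle, Stard4, Abcg1, Scd1, Scd2 and Fads1), and each was searched on both strands for TCACNCCAC (an SREBP site), CCAAT (the NF-Y box) and CACGTG (the E-box). No match of 1 motif overlapped a match of another. CCAAT was found for 20 of the 28 genes and, among the mevalonate, squalene and sterol enzymes, for 14 of 15. Over all 27025 genes with windows in the same table, 41.1% held CCAAT. TCACNCCAC was found for 1 of the 28 genes, Hmgcs1, against 1.44% of all genes, and CACGTG for 6 of 28 against 8.09% of all genes. A match says only that these letters stand in the window. Enzymes of the cholesterol route are printed because they carry those boxes and belong to the groups described next. Each is written 5' to 3' on the strand of its gene, and capitals mark the matches, a CCAAT box on the opposite strand reading ATTGG.
Hmgcs1 (chr13:119690101-119690400, plus strand): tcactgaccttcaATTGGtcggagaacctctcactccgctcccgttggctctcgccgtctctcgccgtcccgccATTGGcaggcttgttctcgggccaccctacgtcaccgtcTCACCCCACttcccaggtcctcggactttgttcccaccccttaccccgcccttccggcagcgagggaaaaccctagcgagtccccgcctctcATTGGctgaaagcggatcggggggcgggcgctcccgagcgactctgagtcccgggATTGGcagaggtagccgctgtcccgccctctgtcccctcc
Lss (chr10:76531355-76531654, plus strand): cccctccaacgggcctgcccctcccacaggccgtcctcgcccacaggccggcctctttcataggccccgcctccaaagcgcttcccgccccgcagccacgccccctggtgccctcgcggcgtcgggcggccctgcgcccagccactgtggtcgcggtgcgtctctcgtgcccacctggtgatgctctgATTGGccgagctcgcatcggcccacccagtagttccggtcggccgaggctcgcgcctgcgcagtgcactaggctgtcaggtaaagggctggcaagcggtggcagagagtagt
Msmo1 (chr8:64733529-64733828, minus strand): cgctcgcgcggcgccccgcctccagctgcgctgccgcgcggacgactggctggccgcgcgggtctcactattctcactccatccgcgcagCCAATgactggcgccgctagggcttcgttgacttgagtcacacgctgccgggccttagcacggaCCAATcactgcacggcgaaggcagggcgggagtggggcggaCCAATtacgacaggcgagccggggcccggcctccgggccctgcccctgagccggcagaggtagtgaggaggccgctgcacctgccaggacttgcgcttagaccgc

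In Hmgcs1 the SREBP site started 137 bases before the start, with CCAAT boxes on the opposite strand beginning 237, 176 and 45 bases before it and 1 more after it. Lss held 1 CCAAT box, 62 bases before the start, and Msmo1 held 3, at 160, 96 and 55 bases. Fasn and Abca1 are printed as well, because both rose with CMA in WT while most of the other genes fell. Here capitals mark the boxes and also the longest run of bases that both windows share, which was noticed after the sequences had been read.
Fasn (chr11:120824498-120824797, minus strand): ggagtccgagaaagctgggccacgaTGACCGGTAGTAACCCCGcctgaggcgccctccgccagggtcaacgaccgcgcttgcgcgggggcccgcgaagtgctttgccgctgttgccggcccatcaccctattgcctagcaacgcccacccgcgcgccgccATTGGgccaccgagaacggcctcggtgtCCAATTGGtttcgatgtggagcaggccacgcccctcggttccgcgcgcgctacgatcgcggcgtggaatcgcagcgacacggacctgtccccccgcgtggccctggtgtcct
Abca1 (chr4:53159846-53160145, minus strand): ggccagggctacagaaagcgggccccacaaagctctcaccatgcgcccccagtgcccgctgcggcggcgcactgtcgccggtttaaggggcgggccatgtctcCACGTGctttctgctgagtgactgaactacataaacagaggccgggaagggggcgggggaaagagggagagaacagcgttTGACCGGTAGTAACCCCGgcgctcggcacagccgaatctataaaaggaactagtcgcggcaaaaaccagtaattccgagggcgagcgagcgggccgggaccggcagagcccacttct

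The shared run is TGACCGGTAGTAACCCCG, 18 bases long, starting 225 bases before the start of Fasn and 67 bases before that of Abca1. Of all 32851 windows in the table, 2 held it, those of Fasn and Abca1. The letters resemble the direct repeat to which LXR is known to bind, and binding was not analysed here. With any 4 bases between the outer parts (TGACCGNNNNTAACCC, both strands, also chosen after the sequences had been read), 3 of the 32851 windows matched, the third being 1 of the windows of Srebf1, 182 bases before its start (chr11:60210422-60210721). The windows of Fads2 and Nr1h2, which rose as well, did not match. Fasn also held CCAAT 90 bases before its start and a palindromic pair of boxes that overlap at 62 and 59 bases, whereas the Abca1 window held a CACGTG at 147 bases and no CCAAT.

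Each library held between 27414450 and 43784910 reads assigned to genes. STING transcript was present in both genotypes, at 183 to 190 CPM (reads of a gene scaled to a common library total) in WT with DMSO and 168 to 181 in STINGgt/gt with DMSO, and a missense allele is not checked by its transcript level. The T cell markers Cd3e, Cd3d, Cd3g, Cd2, Cd5, Cd28 and Cd4 summed to between 2526 and 2806 CPM in every library. Markers of other cells were also present, and summed higher in WT than in STINGgt/gt. B cell markers summed to 632 to 696 CPM in WT with DMSO and 289 to 298 in STINGgt/gt with DMSO, and 6 of 6 were higher in WT by the edgeR test. Of 7 myeloid markers, 5 were higher in WT, Csf1r passed the count filter only through WT libraries and is not counted, and Adgre1 was not tested. Their sums were 54.2 to 61.2 against 40.5 to 43.4 CPM, and the defining macrophage marker Adgre1 was near 0. Of the CD8 and natural killer markers, 4 of 6 were higher in WT and 1 was lower. Of all genes tested, 22.9% were higher and 19.8% lower in this comparison. Their part in the genotype results that follow was not tested. Spread between replicates was widest in WT with DMSO, where the median coefficient of variation over the 36 genes was 6.15%, against 2.43% to 3.59% in the other groups. Over all genes tested it was likewise widest there, at 8.22% against 4.40% to 4.90%.

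Most of these genes were lower with CMA in WT cells. Of the 35 genes other than Ch25h, 23 fell and 6 rose with CMA at an adjusted p under 0.05 (edgeR quasi-likelihood test, Benjamini-Hochberg over all 13811 genes), and 6 did not pass. Across all genes tested, 37.4% fell and 33% rose in the same comparison, so a change as such was common, and the median log2 difference was -0.27 for the 35 genes against -0.04 for all genes. For 37.6% of all genes tested the 3 libraries with CMA lay below the 3 with DMSO, and for 33.5% above. Groups that do not overlap were thus common as well. Expression summed over the 36 genes was 7408, 7042 and 7566 CPM in WT with DMSO and 5889, 5967 and 5852 CPM with CMA. The 3 sums with CMA lay below the 3 with DMSO. In the same libraries, reads outside annotated genes were 6.79% to 7.16% of all reads counted with CMA and 4.86% to 5.47% with DMSO. Those totals include reads that were ambiguous or not unique. T cell markers summed to 2526 to 2535 CPM with CMA and 2721 to 2796 CPM with DMSO (4 of 7 fell, 1 rose). B cell markers summed to 716 to 799 CPM and 632 to 696 CPM (4 of 6 rose). CD8 and natural killer markers summed to 65.8 to 69.8 CPM with CMA and 74.7 to 79.2 CPM with DMSO (4 of 6 fell, 1 rose). Their part in the result was not tested.

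In STINGgt/gt cells the same treatment gave much smaller differences. No gene of the 36 passed in either direction, where 0.398% of all genes rose and 0.92% fell. The log2 differences ran from -0.19 to 0.10 with a median of -0.06. At an unadjusted p under 0.05, 5 of the 36 were lower and 0 higher by edgeR, where 13% of all genes reached that level, and DESeq2, limma-voom and limma on the deposited log2 values gave 0 adjusted calls and also 5 lower and 0 higher at the unadjusted level. Leaving out WT DMSO replicate 2 or 3, which enters through the shared estimate of spread, let Acat2 (-0.17, adjusted p = 0.020 and 0.031), Msmo1 (-0.16, adjusted p = 0.0388 and 0.0341) and Stard4 (-0.19, adjusted p = 0.011 and 0.035) pass. These 3 also passed with only the STINGgt/gt libraries in the fit, and Stard4 with a replicate block or no filter on low counts. Summed expression was 8425, 8589 and 8582 CPM with DMSO and 8084, 8162 and 8284 CPM with CMA, so here too the 3 sums with CMA were the lower, by a smaller step.

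The difference between the genotypes was tested directly, as the CMA effect in WT minus that in STINGgt/gt. It passed for 23 of the 36 genes, 18 of them lower and 5 higher, where 31.6% of all genes were lower and 27.2% higher. These genes were Pmvk, Mvd, Fdps, Sqle, Lss, Cyp51, Msmo1, Nsdhl, Sc5d, Dhcr7, Srebf2, Scap, Stard4, Acly, Elovl6, Scd1, Scd2 and Fads1 on the lower side and Srebf1, Abca1, Nr1h2, Fasn and Fads2 on the higher side. The median of this difference was -0.26 over the 35 genes other than Ch25h and -0.03 over all genes. The WT libraries with DMSO enter this difference as well as the WT effect and the genotype comparison given later, so these are not separate lines of evidence.

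**Figure D1:**
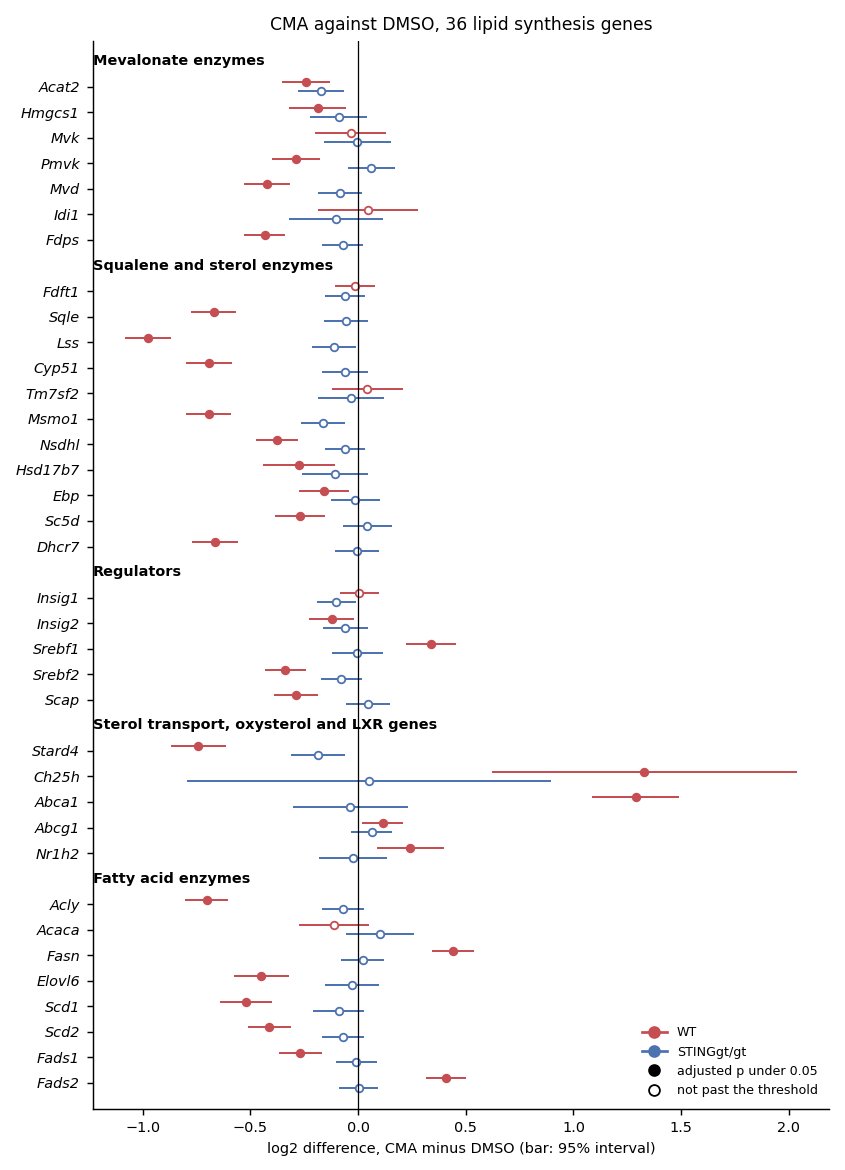
Log2 difference between CMA and DMSO for each of the 36 genes, by role, in WT (red) and STINGgt/gt (blue), with 95% intervals; filled points passed an adjusted p of 0.05. Points for WT spread from -0.98 (Lss) to 1.33 (Ch25h, which passed the count filter only through WT with CMA), whereas those for STINGgt/gt stay between -0.19 and 0.10 and none is filled.

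Of the 7 mevalonate enzymes, 5 fell with CMA in WT and 0 rose, where 37.4% of all genes fell and 33% rose. Fdps, which makes farnesyl diphosphate, stood at 237, 257 and 237 CPM with DMSO and at 182, 184 and 175 CPM with CMA. The groups did not overlap, and the log2 difference was -0.43 (SE 0.04, adjusted p = 1.3e-07), against -0.07 in STINGgt/gt. Mvd, the decarboxylase of mevalonate diphosphate, followed with -0.42 (SE 0.05) and Pmvk, phosphomevalonate kinase, with -0.29 (SE 0.05). For these 3 enzymes the difference between genotypes also passed, at -0.36, -0.34 and -0.35. Fdps shares 1124 exonic bases on its own strand with the annotated gene Gm43738, and how reads there were divided is not given in the sources used here.

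The first enzymes of the route moved less. Acat2, the cytosolic thiolase that joins acetyl-CoA units, fell by 0.24 on the log2 scale in WT (adjusted p = 0.00042), and was -0.17 in STINGgt/gt, where it did not pass (adjusted p = 0.11). The difference between genotypes for Acat2 was -0.07 (95% interval -0.22 to 0.08, adjusted p = 0.41). Hmgcs1, HMG-CoA synthase, had 306, 285 and 351 CPM with DMSO and 276, 272 and 279 CPM with CMA in WT. These groups did not overlap, but they were separated by little, and the log2 difference of -0.19 (adjusted p = 0.011) became -0.09 (adjusted p = 0.092) without WT DMSO replicate 3. The difference between genotypes for Hmgcs1 was -0.10 (adjusted p = 0.34), and it passed (-0.17, adjusted p = 0.043) without WT DMSO replicate 2.

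Mvk and Idi1 did not pass in WT. Mvk, mevalonate kinase, had a log2 difference of -0.04 (95% interval -0.19 to 0.12). Idi1, the isopentenyl diphosphate isomerase, stood at 30.3, 23.8 and 36.9 CPM with DMSO and 32.5, 30.9 and 31.2 CPM with CMA. The DMSO libraries enclosed the CMA libraries, at a log2 difference of 0.05 (adjusted p = 0.72) that became 0.23 (adjusted p = 0.017) without WT DMSO replicate 3 and -0.11 (adjusted p = 0.20) without replicate 2. Its difference between genotypes, 0.15 (adjusted p = 0.40), passed at 0.34 (adjusted p = 0.010) without WT DMSO replicate 3.

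The squalene and sterol enzymes showed the deepest decreases. Of 11, 9 fell with CMA in WT and 0 rose, where 37.4% of all genes fell and 33% rose. The median log2 difference of the 11 enzymes was -0.38 against -0.06 in STINGgt/gt. Their sum was 1158, 1142 and 1186 CPM in WT with DMSO and 798, 797 and 790 CPM with CMA. The corresponding sums in STINGgt/gt were 1603, 1587 and 1587 CPM and 1472, 1539 and 1553 CPM.

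Lss, the lanosterol synthase that closes the sterol rings (chr10:76531588-76557138, GRCm38), fell most among the 36 genes. It had 175, 164 and 153 CPM with DMSO and 84.1, 82.7 and 83.3 CPM with CMA in WT, and 233, 242 and 249 CPM and 221, 225 and 224 CPM in STINGgt/gt. The WT groups were far apart, CMA being 1.97-fold below DMSO at a log2 difference of -0.98 (SE 0.05, adjusted p = 2e-11), and the difference between genotypes was -0.86 (SE 0.07, adjusted p = 1.3e-08). In 20 other fits its WT value ran from -1.01 to -0.92 and passed in each.

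Sqle, squalene epoxidase, feeds Lss. It stood at 120, 117 and 130 CPM with DMSO and 76.3, 77.3 and 77.4 CPM with CMA in WT, and at 155, 152 and 153 CPM and 141, 151 and 151 CPM in STINGgt/gt. The WT groups were far apart for their spread, with a log2 difference of -0.67 (SE 0.05, adjusted p = 1.8e-09) and a difference between genotypes of -0.62.

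Cyp51, the demethylase of lanosterol, had 324, 314 and 354 CPM with DMSO and 209, 201 and 203 CPM with CMA in WT. In STINGgt/gt it had 497, 500 and 480 CPM with DMSO and 449, 483 and 485 CPM with CMA, and those groups overlapped. The log2 difference in WT was -0.69 (SE 0.05), and the difference between genotypes was -0.63 (adjusted p = 8.1e-07).

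Msmo1, the sterol methyl oxidase whose promoter carries 3 CCAAT boxes, stood at 132, 134 and 139 CPM with DMSO and 85.0, 83.7 and 82.1 CPM with CMA in WT. Its log2 difference was -0.69 in WT and -0.16 in STINGgt/gt (adjusted p = 0.11), and the difference between them was -0.53 (adjusted p = 3.5e-06). Dhcr7, which carries out the last reduction to cholesterol, had 71.8, 71.99 and 70.1 CPM with DMSO and 42.0, 47.7 and 45.2 CPM with CMA in WT. Its log2 difference was -0.67 in WT and -0.00 in STINGgt/gt, with a 95% interval of -0.10 to 0.09 in the latter.

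The remaining sterol enzymes fell less or did not pass. Nsdhl, a sterol dehydrogenase, fell by 0.38 on the log2 scale, and Sc5d, a sterol desaturase, by 0.27, and the difference between genotypes passed for both (-0.32 and -0.31). Hsd17b7, a keto-sterol reductase, fell by 0.27 and Ebp, a sterol isomerase, by 0.16, but for these the difference between genotypes did not pass (-0.17, adjusted p = 0.18, and -0.14, adjusted p = 0.10). Without WT DMSO replicate 2 the difference for Hsd17b7 passed (-0.26, adjusted p = 0.013), and the decrease of Ebp no longer did (-0.11, adjusted p = 0.059), nor did it without WT CMA replicate 1 (-0.13, adjusted p = 0.070). Fdft1, squalene synthase, was at -0.02 in WT (95% interval -0.10 to 0.07) and Tm7sf2, a sterol reductase, at 0.04 (95% interval -0.12 to 0.20). Fdft1 shares 774 exonic bases with Ctsb on the opposite strand and Tm7sf2 shares 532 with Vps51 on its own strand, and whether the counting used strand is not given in the sources used here. The part of these overlaps in either value was not tested.

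**Figure D2:**
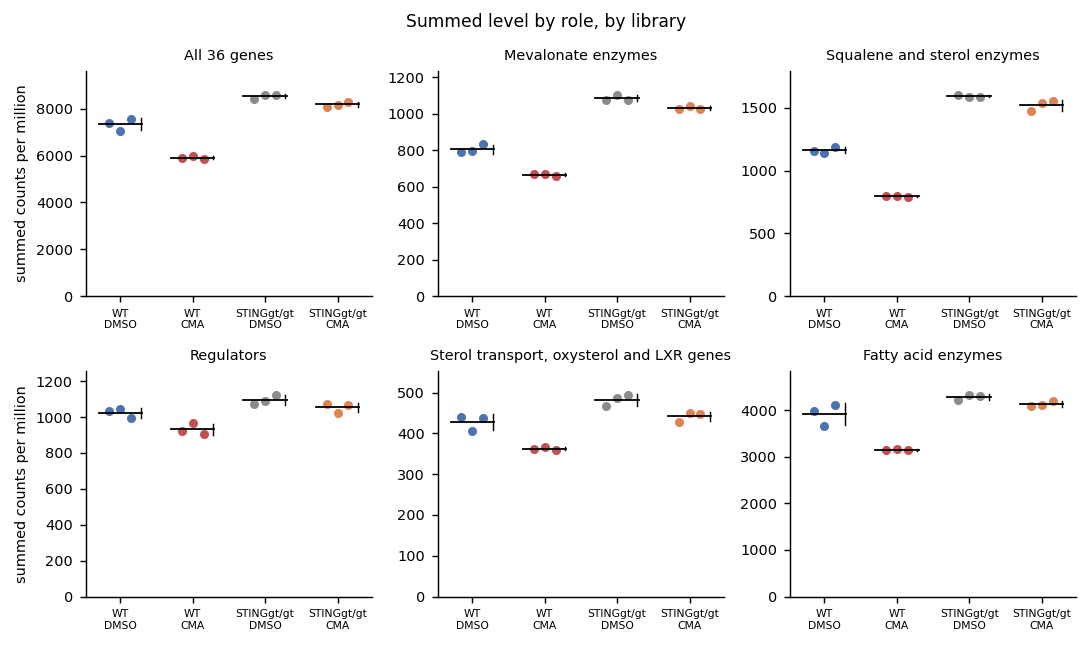
Summed CPM of all 36 genes and of each role in every library, with the mean (line) and SD (bar) of 3 libraries per group. Sterol enzymes with CMA in WT sum to 790 to 798, below WT with DMSO (1142 to 1186) and STINGgt/gt (1472 to 1603).

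The regulators did not move as a block. With CMA in WT 1 of 5 rose, 3 fell and 1 did not pass, where 33% of all genes rose and 37.4% fell. Srebf1 (chr11:60199089-60222581), which encodes SREBP-1, stood at 193, 206 and 181 CPM with DMSO and 236, 255 and 242 CPM with CMA in WT, and at 194, 203 and 208 CPM and 209, 191 and 203 CPM in STINGgt/gt. Every WT library with CMA was above the other 9 libraries. Its log2 difference was 0.34 in WT (SE 0.05, adjusted p = 2.7e-05) and the difference between genotypes was also 0.34 (SE 0.08, adjusted p = 0.00094).

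Srebf2 (chr15:82147181-82205379), which encodes SREBP-2, the factor tied mainly to cholesterol synthesis, went the other way. It stood at 601, 596 and 571 CPM with DMSO and 463, 486 and 448 CPM with CMA in WT, and at 618, 623 and 647 CPM and 607, 576 and 606 CPM in STINGgt/gt. Every WT library with CMA was below the other 9. The log2 difference was -0.34 in WT (SE 0.04, adjusted p = 2.7e-06), and the difference between genotypes was -0.26 (SE 0.06, adjusted p = 0.0016). Per kilobase of exon, Srebf2 was the more abundant of the SREBP genes in each group, at 82.0 RPKM (CPM divided by exon length in kilobases) against 34.3 for Srebf1 in WT with DMSO and 64.9 against 43.4 with CMA.

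Scap (chr9:110333288-110384950), the escort of the SREBP precursors, stood at 91.8, 94.96 and 88.2 CPM with DMSO and 73.6, 76.6 and 74.8 CPM with CMA in WT. In STINGgt/gt it stood at 95.3, 93.6 and 101 CPM and at 103, 95.6 and 101 CPM. The WT libraries with CMA were below the other 9, at a log2 difference of -0.29 (SE 0.05) and a difference between genotypes of -0.34 (adjusted p = 0.00035). Scap shares 985 exonic bases with a gene on the opposite strand.

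The INSIG genes moved little. Insig1 (chr5:28071363-28078662), itself a known SREBP target, stood at 103, 103 and 106 CPM with DMSO and 106, 105 and 101 CPM with CMA in WT, and at 122, 127 and 124.6 CPM and 113, 119 and 117 CPM in STINGgt/gt. The WT groups overlapped, and the log2 difference of 0.01 had a 95% interval of -0.08 to 0.09. Insig2 (chr1:121304353-121332589) stood at 46.7, 46.1 and 47.1 CPM with DMSO and 43.7, 42.9 and 41.8 CPM with CMA in WT, and at 42.2, 43.6 and 41.7 CPM and 38.9, 43.4 and 40.0 CPM in STINGgt/gt. Its log2 difference of -0.12 in WT (adjusted p = 0.030) did not pass in 11 of 20 other fits, where the adjusted p reached 0.15. Among these were the fits without WT DMSO replicate 1 or 3, WT CMA replicate 2 or 3, STINGgt/gt DMSO replicate 1 or STINGgt/gt CMA replicate 3, at log2 differences of -0.13 to -0.11.

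**Figure D3:**
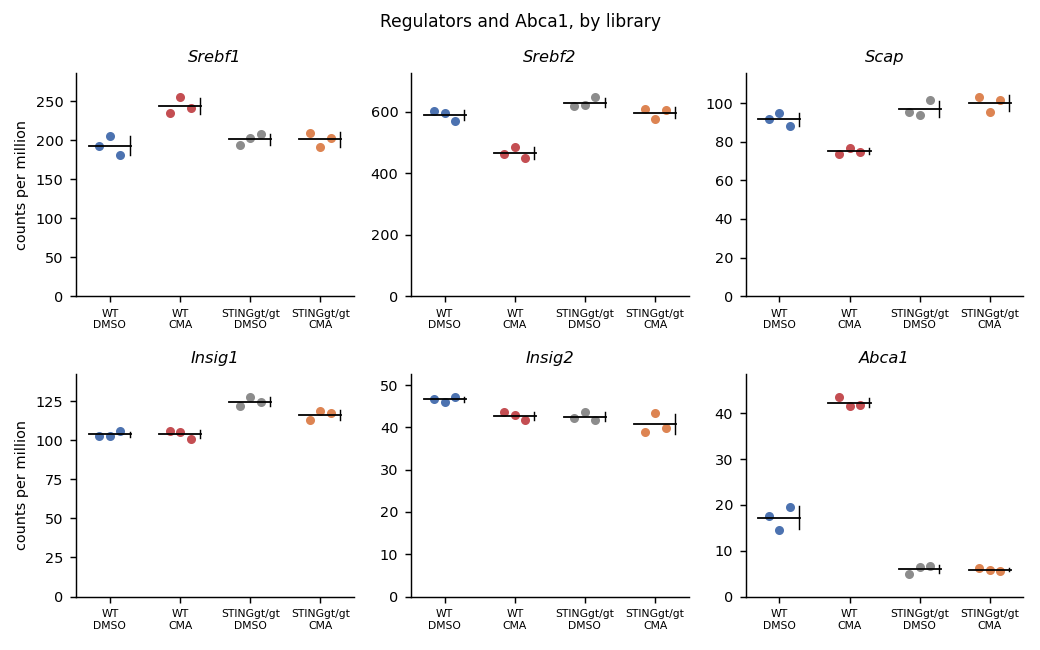
CPM of the 5 regulators and of Abca1 in each library (points), with mean (line) and SD (bar) of 3 libraries. Srebf1 and Abca1 stand highest in WT with CMA and Srebf2 and Scap lowest there, and Insig1 overlaps between DMSO and CMA in WT.

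Of the genes of sterol export and LXR, Abca1, Abcg1 and Nr1h2 rose with CMA in WT and the carrier Stard4 fell. With Ch25h left out, 3 of 4 thus rose and 1 fell, where 33% of all genes rose and 37.4% fell. Abca1, the exporter of cellular cholesterol and a classical LXR target (chr4:53030787-53159895), showed the greatest change of any of the 36 genes that passed the test between genotypes. It stood at 17.6, 14.6 and 19.6 CPM with DMSO and 43.5, 41.6 and 41.9 CPM with CMA in WT, and at 4.95, 6.49 and 6.69 CPM and 6.20, 5.79 and 5.59 CPM in STINGgt/gt. WT with CMA was highest, WT with DMSO was between, and the STINGgt/gt groups overlapped at the bottom. The rise in WT was 2.44-fold (log2 1.29, SE 0.09, adjusted p = 2.6e-09), against -0.04 in STINGgt/gt, and the difference was 1.33 (SE 0.15, adjusted p = 1.8e-06). It is the only gene of the 36 that passed that test with a log2 difference of at least 1.

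Macrophages and B cells can express Abca1, so their markers are given beside it, although naive T cells had been sorted before culture. Myeloid markers summed to 54.2 to 61.2 CPM in WT with DMSO and 68.2 to 73.1 CPM with CMA. By gene, 1 of the 6 tested rose with CMA in WT (Cst3) and 3 fell (Lyz2, Itgam and Fcgr3), with Adgre1 near 0. B cell markers summed to 632 to 696 CPM and 716 to 799 CPM, and 4 of 6 rose. Of the T cell markers 1 of 7 rose (Cd4, log2 0.19) and 4 fell, Cd3e among them at -0.66. Across all genes 33% rose and 37.4% fell. The part of these cells in the Abca1 values was not tested.

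Nr1h2, which encodes LXR-beta, stood at 85.9, 94.1 and 72.2 CPM with DMSO and 99.1, 102 and 96.4 CPM with CMA in WT. The groups did not overlap, at a log2 difference of 0.24 (adjusted p = 0.0063), and the difference between genotypes was 0.27 (adjusted p = 0.032), which did not pass in 5 of 19 other fits, those without WT CMA replicate 1 (0.27, adjusted p = 0.055) or 2 (0.24, adjusted p = 0.075), STINGgt/gt DMSO replicate 3 (0.25, adjusted p = 0.068) or STINGgt/gt CMA replicate 2 (0.25, adjusted p = 0.067) among them. Abcg1, a second exporter and also an LXR target, rose by a log2 difference of only 0.11 (adjusted p = 0.027), with 0.06 in STINGgt/gt and a difference of 0.05 that did not pass (95% interval -0.08 to 0.18). The rise of Abcg1 in WT did not pass in 4 of 20 other fits, which include those without WT DMSO replicate 2 (0.11, adjusted p = 0.052) and without WT CMA replicate 2 (0.08, adjusted p = 0.13).

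Ch25h, the hydroxylase that makes an oxysterol, was barely transcribed. It had 5, 5 and 9 reads with DMSO and 14, 15 and 20 reads with CMA in WT, and 8, 6 and 5 reads and 10, 5 and 7 reads in STINGgt/gt. The 3 WT libraries with CMA were the highest, and it passed the count filter only through them, so its log2 difference of 1.33 in WT and of 0.05 in STINGgt/gt are a description, with no test. Stard4, which carries cholesterol between membranes, had 285, 247 and 295 CPM with DMSO and 164, 165 and 165 CPM with CMA in WT. It was among the genes that fell furthest, at -0.74 (SE 0.06) in WT, -0.19 in STINGgt/gt (adjusted p = 0.14) and -0.56 (adjusted p = 2.0e-05) for the difference.

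Of the 8 fatty acid enzymes, 5 fell with CMA in WT, 2 rose and 1 did not pass. Of all genes, 37.4% fell and 33% rose. Acly, which makes cytosolic acetyl-CoA from citrate for both routes, stood at 628, 568 and 640 CPM with DMSO and 379, 380 and 370 CPM with CMA in WT. In STINGgt/gt it stood at 581, 603 and 598 CPM and at 573, 562 and 562 CPM. Only WT with CMA was apart, with a log2 difference of -0.70 (SE 0.04, adjusted p = 5.6e-10) and a difference between genotypes of -0.63 (SE 0.06).

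The desaturases of saturated fatty acids fell together. Scd2 was the most abundant of the 36 genes per kilobase, at 428 RPKM in WT with DMSO, ahead of Acly at 116. It had 2400, 2170 and 2440 CPM with DMSO and 1750, 1769 and 1746 CPM with CMA in WT, at a log2 difference of -0.41 (SE 0.04) against -0.07 in STINGgt/gt. Scd1 had 268, 257 and 307 CPM with DMSO and 190, 194 and 198 CPM with CMA in WT, at -0.52 (SE 0.05) against -0.09. The groups did not overlap for either gene in WT, where CMA lay below DMSO in this way for 37.6% of all genes. The difference between genotypes was -0.34 for Scd2 and -0.43 for Scd1.

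Elovl6, which lengthens palmitate, stood at 84.3, 81.3 and 95.8 CPM with DMSO and 64.3, 66.0 and 61.4 CPM with CMA in WT, and at 57.6, 58.0 and 59.6 CPM and 54.3, 58.1 and 59.4 CPM in STINGgt/gt. With CMA the WT level came down by a log2 difference of -0.45 (SE 0.06), to just above the STINGgt/gt libraries. Fads1, a desaturase of polyunsaturated fatty acids, fell by 0.27 (SE 0.04), and its difference between genotypes was -0.26 (adjusted p = 0.0018).

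Fasn and Fads2 rose. Fasn (chr11:120805846-120824547), the synthase that builds palmitate, stood at 413, 400 and 430 CPM with DMSO and 558, 569 and 563 CPM with CMA in WT, and at 587, 606 and 626 CPM and 634, 583 and 627 CPM in STINGgt/gt. WT with DMSO was the lowest of the 4 groups, and CMA brought it up 1.36-fold (log2 0.44, SE 0.04, adjusted p = 1.6e-07), still below the STINGgt/gt libraries. Fads2, the partner of Fads1 in making long polyunsaturated fatty acids, had 57.1, 55.4 and 59.1 CPM with DMSO and 76.0, 74.7 and 76.9 CPM with CMA in WT. In STINGgt/gt it had 78.0, 79.0 and 74.8 CPM and 78.9, 76.3 and 77.0 CPM, so that WT with CMA overlapped STINGgt/gt. Its log2 difference was 0.41 (SE 0.04) in WT and the difference between genotypes was 0.40 (SE 0.06, adjusted p = 1.8e-05).

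Acaca, which makes malonyl-CoA for Fasn, did not pass. It stood at 78.6, 66.6 and 89.3 CPM with DMSO and 74.1, 69.1 and 74.2 CPM with CMA in WT, where the DMSO libraries enclosed those with CMA. The log2 difference was -0.11 (95% interval -0.27 to 0.05, adjusted p = 0.19) and became -0.22 (adjusted p = 0.00085) without WT DMSO replicate 2 and 0.01 (adjusted p = 0.90) without replicate 3. Its difference between genotypes, -0.21 (adjusted p = 0.092), passed in 4 of 19 other fits, those with library-size scaling, no count filter or a replicate block and, at -0.32 (adjusted p = 0.00047), without replicate 2, and it was -0.09 (adjusted p = 0.34) without replicate 3.

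**Figure D4:**
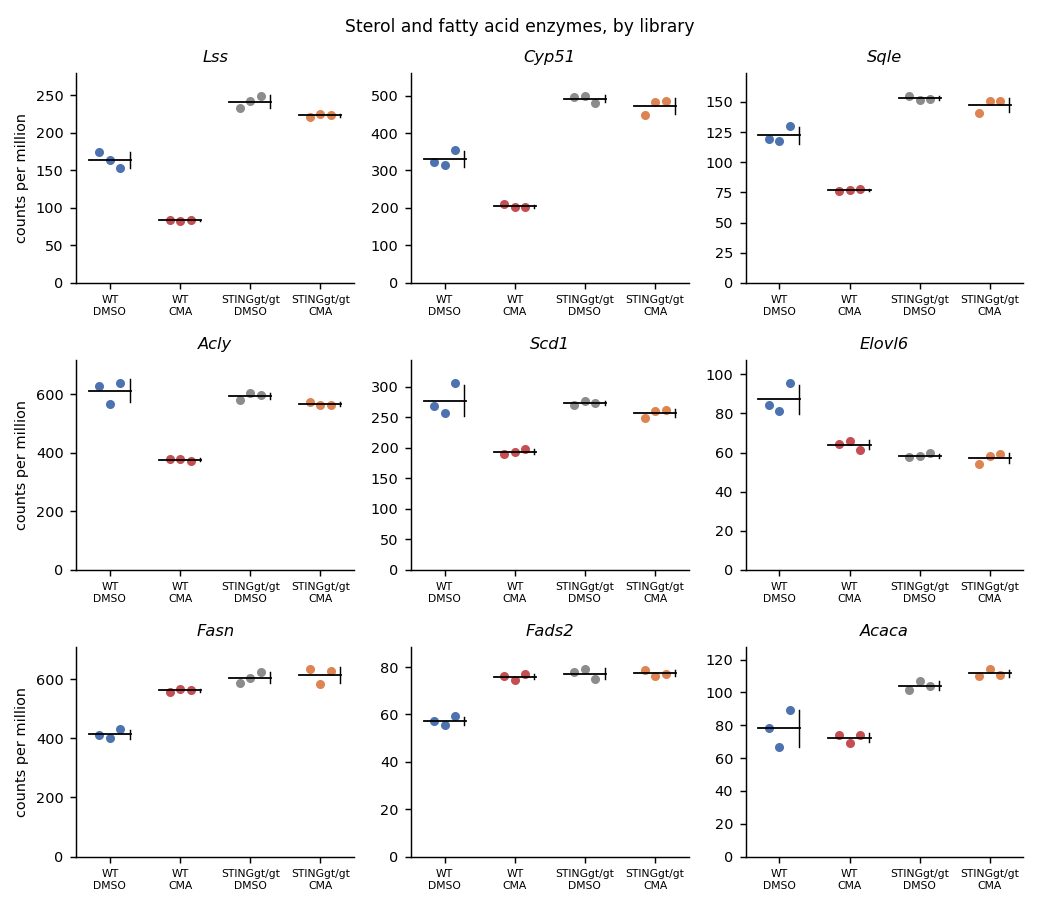
CPM of 3 sterol enzymes and 6 fatty acid enzymes in each library (points), with mean (line) and SD (bar) of 3 libraries; each axis starts at 0. With CMA in WT, Lss, Cyp51, Sqle, Acly, Scd1 and Elovl6 are below WT with DMSO, Fasn and Fads2 are above it, and Acaca overlaps.

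Already with DMSO alone, WT and STINGgt/gt cells differed in these genes. Of the 36, 23 were lower in WT than in STINGgt/gt and 3 were higher, where 19.8% of all genes were lower and 22.9% higher, and 9 others did not pass besides Ch25h. The median log2 difference was -0.32 for the 35 genes without Ch25h and -0.00 for all genes tested. Any other difference between the mouse colonies cannot be told apart from the STING allele. The higher sums of B cell and myeloid markers in WT given above go with the same contrast.

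The cholesterol route was lower in WT almost throughout. Of the 7 mevalonate enzymes 7 were lower, at log2 differences of -0.58 (Idi1) to -0.20 (Mvk), with Acat2 at -0.50 (SE 0.05, adjusted p = 5.0e-07), Hmgcs1 at -0.50 (SE 0.06) and Pmvk at -0.54 (SE 0.05). Mvk did not pass in 5 of 20 other fits, among them those without WT DMSO replicate 1 (-0.21, adjusted p = 0.060) or 3 (-0.14, adjusted p = 0.13) and STINGgt/gt DMSO replicate 1 (-0.21, adjusted p = 0.066) or 3 (-0.17, adjusted p = 0.12). Of the 11 squalene and sterol enzymes 10 were lower, the exception being Ebp, which stood at 44.8, 50.6 and 45.2 CPM in WT and 44.4, 42.7 and 44.4 CPM in STINGgt/gt. Dhcr7 differed most, at 71.8, 71.99 and 70.1 CPM in WT against 117, 113 and 116 CPM in STINGgt/gt (log2 -0.69, SE 0.05, adjusted p = 6.8e-09). Hsd17b7 followed at -0.65, Cyp51 at -0.57 and Lss at -0.56. For each the WT libraries were all below the STINGgt/gt libraries, as for 22.6% of all genes tested.

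The regulators and export genes looked different. Srebf1, Srebf2 and Scap did not pass, at -0.06, -0.10 and -0.08, whereas Insig1 was lower in WT (-0.27, SE 0.04, adjusted p = 6.0e-05). Insig2 was higher by 0.13 (adjusted p = 0.033), a call that did not pass in 12 of 20 other fits, 7 of which leave out 1 library and gave 0.12 to 0.14. Srebf2 passed with library-size scaling, with DESeq2 and with a stricter count filter, at an adjusted p down to 0.026. Abca1 was 2.88-fold higher in WT (log2 1.53, SE 0.11, adjusted p = 1.4e-08), the greatest difference among the 36, with the myeloid and B cell sums above moving the same way. Stard4 was lower in WT at -0.32 (SE 0.06). Nr1h2 was at 0.10 (adjusted p = 0.30) and passed without WT DMSO replicate 3 (0.19, adjusted p = 0.0050).

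Among the fatty acid enzymes 4 were lower in WT, 1 was higher and 3 did not pass. Of all genes, 19.8% were lower and 22.9% higher. Fasn (-0.55, SE 0.04), Fads2 (-0.43), Acaca (-0.41) and Fads1 (-0.27) were lower, and Elovl6 was higher at 0.58 (SE 0.06, adjusted p = 6.1e-07). Acly and Scd1, each well lowered by CMA in WT, stood level between the genotypes with DMSO, at 0.04 (95% interval -0.05 to 0.14) and 0.02 (95% interval -0.09 to 0.13). Scd2 was at -0.10 (adjusted p = 0.094) and passed in 4 of 20 other fits: without WT DMSO replicate 3 (-0.13, adjusted p = 0.021), with library-size scaling, with DESeq2 and with a stricter count filter.

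**Figure D5:**
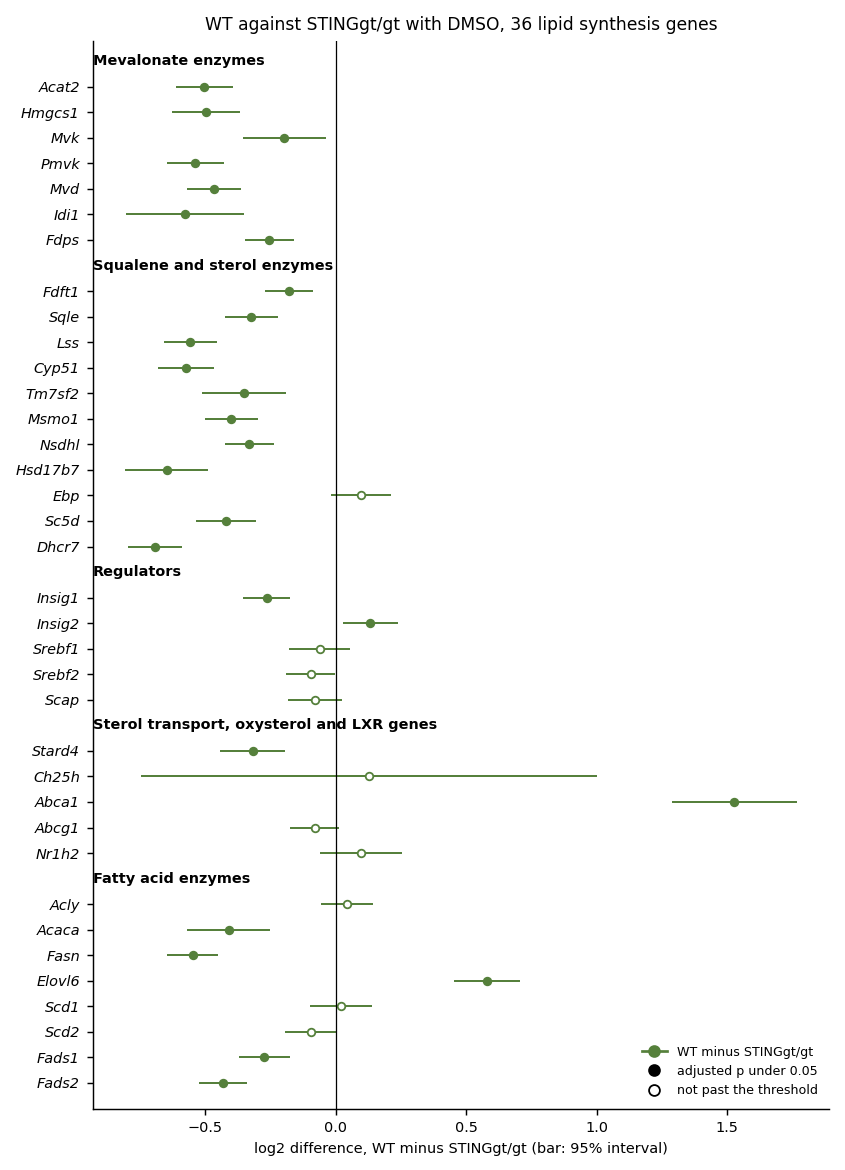
Log2 difference between WT and STINGgt/gt, both with DMSO, for each of the 36 genes by role, with 95% intervals; filled points passed an adjusted p of 0.05. Mevalonate enzymes are all to the left of 0, from -0.58 to -0.20, and on the right Abca1 (1.53) is furthest from 0, followed by Elovl6 (0.58).

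Further genes of these pathways were counted from further lists, to be read against the 33% of all genes that rose and the 37.4% that fell with CMA in WT. Of 11 further sterol genes 5 rose and 4 fell, with a median log2 difference of 0.00, and the 3 largest changes were in Nr1h3, Npc2 and Soat1. Nr1h3, which encodes LXR-alpha, rose from 0.669 ± 0.205 to 1.71 ± 0.162 CPM (SD, n = 3; log2 1.39, edgeR adjusted p = 0.00010). Npc2, which moves cholesterol out of lysosomes, rose from 672 ± 25.4 to 1731 ± 23.7 CPM (SD, n = 3; log2 1.36, edgeR adjusted p = 2.9e-14). Soat1, which esterifies cholesterol for storage, fell from 119 ± 5.83 to 55.0 ± 1.52 CPM (SD, n = 3; log2 -1.11, edgeR adjusted p = 1.8e-12). In STINGgt/gt 0 of these 11 passed by edgeR, where 2 were lower and 0 higher at an unadjusted p under 0.05. Of all genes, 13% reached that unadjusted level. Soat1 lay at the threshold there, at a log2 difference of -0.18 (edgeR adjusted p = 0.05001), and it passed by DESeq2 (-0.18, adjusted p = 0.020) and limma-voom (-0.18, adjusted p = 0.047).

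Of 18 further fatty acid genes 5 rose and 12 fell with CMA in WT, with a median of -0.18. The furthest were Me1, the malic enzyme that supplies NADPH (log2 -2.15), Acacb, the mitochondrial acetyl-CoA carboxylase (-1.72), and Fads3 (1.14), and all 3 are low in these cells, at 1.34 to 1.65 CPM in WT with DMSO. Of 13 genes of fatty acid oxidation 4 rose and 6 fell, with a median of -0.12. Acaa2, the last thiolase of the mitochondrial spiral, fell from 45.8 ± 0.908 to 13.5 ± 0.555 CPM (SD, n = 3; log2 -1.76), and Eci1, an enoyl-CoA isomerase, was at -0.61. Acadm, the medium-chain dehydrogenase, rose by 0.65. In STINGgt/gt 0 of the 18 and 0 of the 13 passed by edgeR, DESeq2 or limma-voom. At an unadjusted p under 0.05 by edgeR, 1 of the 18 was lower and 0 higher, and 1 of the 13 was lower and 2 higher. Of all genes, 13% reached that level there.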

How the data were processed

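Counts per gene and a normalized log2 table were deposited for 12 libraries. Per the submitters' processing notes the authors used cutadapt 1.3, STAR 2.4.0f1, HTSeq 0.6.1, RSEM 1.2.16 and GRCm38; the strand setting of the counting is not given in the sources used here. CMA was given at 125 μg/ml. Each deposited count file holds whole reads per Ensembl gene, and the tally lines at its end were left out of library sizes. Of all reads counted in a file, tally lines included, 4.86% to 7.16% had no feature and 27.8% to 30.3% were not unique. The deposited log2 values equal log2(count + 0.5) plus 1 factor per library and served as an alternative. The 36 genes, the further lists and the marker lists were chosen with earlier results of these data known.

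Counts were tested with edgeR 4.0.16 in R 4.3.3 (TMM, filterByExpr by group, glmQLFit and glmQLFTest, 4 group means, Benjamini-Hochberg over 13811 genes, threshold 0.05). CPM use TMM library sizes and RPKM the union of GENCODE exons. Every gene of the list is described by role, with values per library for Srebf1, Srebf2, Insig1, Insig2, Scap and genes past the test between genotypes with a log2 difference of at least 1, and for others the results turn on; further lists name at most 3 genes. DESeq2 1.42.0, limma 3.58.1, other scalings, filters and thresholds, a replicate block and leaving out each library were tried. Promoter sequences are from RefSeq (GRCm38.p6). On simulated counts for the WT comparison (13365 genes run, 200 set to change before the count filter), edgeR recovered 24 of 49 genes changed by 0.3 (log2), 31 of 48 by 0.5, 42 of 49 by 1 and 47 of 48 by 2. Each simulated group started from the WT DMSO means. In the data 4560 genes rose and 5168 fell in that comparison, so these shares do not describe recovery in the data. Counting intervals aside, precision is set by 3 libraries per group.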

Additional observations from a re-analysis of the deposited data

Results flagged for a closer look

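WT and STINGgt/gt responded differently to CMA, by an edgeR test of the difference of the responses with adjusted p under 0.05, for 23 of the 36 genes. Of all genes tested, 31.6% were lower and 27.2% higher by the same test, so passing it was common. The log2 difference, WT effect minus STINGgt/gt effect, was 1.33 for Abca1, 0.42 for Fasn, 0.40 for Fads2, 0.34 for Srebf1 and 0.27 for Nr1h2. It was -0.86 for Lss, -0.66 for Dhcr7, -0.63 for Cyp51, -0.63 for Acly, -0.62 for Sqle, -0.56 for Stard4, -0.53 for Msmo1, -0.43 for Scd1 and -0.42 for Elovl6. It was -0.36 for Fdps, -0.35 for Pmvk, -0.34 for Scd2, -0.34 for Mvd, -0.34 for Scap, -0.32 for Nsdhl, -0.31 for Sc5d, -0.26 for Srebf2 and -0.26 for Fads1. With 3 libraries per group, single libraries were not screened for outlying values.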

How the results depend on the processing

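Numbers of genes higher or lower stayed within 1.5 times of those given, outside STINGgt/gt, except that asking for at least a 2-fold change left 2 genes higher and 0 lower with CMA in WT, 1 higher and 0 lower for the difference between genotypes, and 1 higher and 0 lower for WT against STINGgt/gt with DMSO. At that 2-fold threshold, 1287 of all 13811 genes were higher and 1061 lower with CMA in WT. These were 1201 and 1008 for the difference, and 791 and 215 between the genotypes with DMSO. Leaving out 1 library at a time gave 6 to 8 higher and 21 to 23 lower with CMA in WT, 4 to 6 higher and 18 to 21 lower for the difference, 2 to 3 higher and 22 to 23 lower between the genotypes, and 0 to 0 higher and 0 to 3 lower in STINGgt/gt. The 3 in STINGgt/gt appeared without WT DMSO replicate 2 or without WT DMSO replicate 3. In the same fits, of all 13991 to 14042 genes tested, 4323 to 4700 were higher and 4849 to 5240 lower in WT. For the difference these were 3480 to 3985 and 4043 to 4572, and between the genotypes 2647 to 3281 and 2355 to 3130. In STINGgt/gt they were 14 to 180 and 41 to 289. For STINGgt/gt, 1 gene was lower with no filter on low counts (257 of all 22118 genes) and 3 with only the 2 groups compared (388 of all 13113). Whether the libraries of a replicate number belong together is not stated. In WT the submitters' sample names share a first digit between DMSO and CMA for each replicate number. In STINGgt/gt they do so for replicates 1 and 3 but not 2. Correlations of deviations from the group means (0.00195, 0.104 and 0.132 in WT and 0.0585 to 0.0634 in STINGgt/gt) cannot decide this, because each mean rests on 3 libraries. With a block by replicate number 7 rose and 23 fell in WT, and 1 fell in STINGgt/gt. With that block the difference gave 6 higher and 19 lower, and the genotypes 3 higher and 23 lower. With the replicate block, 4674 of all 13811 genes were higher and 5276 lower in WT, and 130 and 233 in STINGgt/gt. For the difference these were 3951 and 4493, and between the genotypes 3082 and 2703. No gene of the 36 changed direction between a main and an alternative value of which either passed. Of 718 gene values in WT 22 no longer passed and 2 newly passed; for the difference 5 of 682 no longer passed and 13 newly passed; between genotypes these were 17 and 8 of 717. The cause of these shifts was not tested. Ch25h, at 5 to 20 reads a library, was left out of the stricter filter and is not in the deposited log2 table. The counts in this paragraph, apart from those over all genes tested, are over the 36 genes, Ch25h included. Over the 35 without it, an alternative chosen after seeing the data, 1 gene rose at least 2-fold in WT, 6 rose with a replicate block and 5 to 7 rose with 1 library left out, and the difference gave 5 higher with the block. Of the 13 values that newly passed for the difference, 4 are those of Ch25h. Depth limits Ch25h most; the other 35 genes exceed 4 CPM in every library.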
